A study of Mus musculus with 28 samples.

Results

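A set of 10 genes of the enteroendocrine and neuroendocrine programme was followed through fetal tissues of mice that lack the transcription factor p63 and of wild-type (WT) mice. They are 3 transcription factors (Insm1, Neurog3 and Neurod1), 3 proteins of the secretory granule (Chga, Chgb and Scg2) and 4 peptide hormones (Sst, Ghrl, Gcg and Calcb). Each gene was taken by its symbol and represented by its probe set with the highest mean over all arrays, so that the set holds 10 of the 18193 genes with a symbol of their own on the array. Of the 10, 9 were among the 13613 genes tested; Neurog3 lay below the median of the array on all 28 arrays and was therefore not tested.

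The samples were p63 knockout (KO) bladder at embryonic days E15, E18 and E19 and, at E18, KO stomach (proximal and distal parts taken apart) and KO intestine (small and large), each with its WT counterpart, all of the Balb/c strain. There were 14 groups of 2 arrays, 28 in all, of total RNA on the Affymetrix mouse 430 2.0 array, whose probes lie near the 3' end of transcripts. The labels give neither the design of the p63 allele nor whether it is deleted in the whole animal, and they do not say whether the 2 samples of a group came from separate fetuses, so that the p-values measure the spread between these samples, which may be technical. In mouse, p63 is known as a master regulator of stratified and basal epithelium.

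Enteroendocrine cells are scattered, hormone-secreting cells of the gut epithelium. In the mouse intestine they arise when Neurog3 is switched on in progenitors under the control of Notch signalling; Neurod1 and Insm1 act later and drive the differentiation of the cells, which then fill dense-core granules with chromogranins, secretogranins and a hormone. The proximal stomach of the mouse is the forestomach, which is normally lined by squamous epithelium and has few endocrine cells, whereas the glandular distal stomach holds many of them.

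Values are deposited log2 expression values, given for replicate 1 and then replicate 2 of a group. The levels of different probe sets are not comparable with each other, and no detection calls were used here, so a level is placed against the median of its array, which was 7.48 to 7.86. A gene is said to have risen or fallen where limma's adjusted p was under 0.05. The 10 genes were measured in whole tissue, where more cells of a type and more RNA per cell cannot be told apart.

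The targeted gene did not follow a simple pattern. The 4 Trp63 probe sets were 0.49, 0.91, 1.12 and 1.63 higher (log2) in KO than in WT proximal stomach, and the probe set with the highest mean differed by -2.44 (KO minus WT) in bladder at E19. Where these probe sets lie relative to the deletion is unknown here, so they check nothing about the allele, and KO means the arrays labelled so. Of the 11 markers of squamous and basal epithelium tested, 8 fell in KO proximal stomach, where 14.6% of all genes tested fell. Among them were Krt5, by 5.80, and the cornified-envelope precursor Lor, by 5.60 on the log2 scale. Replicates correlated with r of 0.98 to 0.994 over the probe sets analysed.

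Chga, Chgb, Scg2 and Sst, 4 of the 8 genes with an entry in RefSeq's promoter table (build GRCm38.p6), carry a cAMP response element or a close form of it shortly before the start of transcription. The windows are shown because these 4 genes share the motif and yet took different courses in the tissues below. The motif searched on both strands was TGACGTNA, which includes the full palindrome. Each line gives the 100 bases before the RefSeq start on the strand of the gene, 5′ to 3′, with the motif in capitals.
Chga, chr12:102554841-102554940, plus strand: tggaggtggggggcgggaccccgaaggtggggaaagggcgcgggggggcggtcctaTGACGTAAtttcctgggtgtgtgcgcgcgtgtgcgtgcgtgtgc
Chgb, chr2:132781542-132781641, plus strand: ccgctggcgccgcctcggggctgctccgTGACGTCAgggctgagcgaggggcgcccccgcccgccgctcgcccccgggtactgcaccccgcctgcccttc
Scg2, chr1:79440027-79440126, minus strand: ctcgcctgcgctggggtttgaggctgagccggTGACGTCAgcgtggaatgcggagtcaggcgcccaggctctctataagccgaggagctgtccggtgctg
Sst, chr16:23890845-23890944, minus strand: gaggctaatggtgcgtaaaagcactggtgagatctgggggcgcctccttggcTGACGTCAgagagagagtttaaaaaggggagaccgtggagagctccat
The motif begins 44 bases before the start of Chga, 72 before that of Chgb, 68 before that of Scg2 and 48 before that of Sst. Within the 250 bases before the start, 2.52% of the 32851 promoters in the table hold it. The windows of Neurog3, Neurod1, Ghrl and Gcg do not contain these letters. Insm1 and Calcb are not shown. A match describes the letters and is not evidence of binding.

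In proximal stomach at E18, 5 of the 9 genes tested rose in KO (Calcb, Insm1, Chga, Scg2 and Neurod1) and none fell, where 18.1% of all genes tested rose, 14.6% fell and 32.7% changed in either direction. Those that rose were 2 transcription factors, 2 granule genes and 1 neuropeptide gene, with differences of 0.84 for Neurod1 to 6.43 for Calcb (log2). The granule gene Chgb and the hormones Ghrl, Sst and Gcg did not pass the test. The 2 KO arrays lay above both WT arrays for 8 of the 10 genes, Neurog3 included, which was the case for 35.2% of all genes tested. The median difference was 0.86 over the 10 genes and 0.02 over all genes tested.

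Insm1 encodes a zinc-finger factor that is expressed in endocrine progenitors and developing neurons. It measured 9.98 and 10.07 in KO proximal stomach, against 5.31 and 5.37 in WT proximal stomach. The groups were far apart, and the replicates of each group nearly coincided. The difference was 4.68 (log2, SE 0.22, limma adjusted p = 5.89e-13). The WT values lay far below the array median, so that the size of the difference is uncertain. A second probe set for Insm1 measured 9.16 and 8.66 in KO and 5.25 and 5.19 in WT proximal stomach, a difference of 3.69 with an adjusted p of 7.03e-10 in the same limma fit over probe sets.

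Neurod1, a basic helix-loop-helix factor of endocrine and neuronal differentiation, measured 6.50 and 6.62 in KO proximal stomach, against 5.78 and 5.67 in WT proximal stomach. The groups did not overlap, but both lay below the median of the array. The difference was 0.84 (SE 0.25, limma adjusted p = 0.0125), and it lost its call without KO replicate 2 (adjusted p = 0.0836) and without WT replicate 2 (adjusted p = 0.0605). Neurog3, the factor that specifies endocrine progenitors, measured 6.76 and 5.95 in KO proximal stomach, against 5.74 and 5.54 in WT proximal stomach, without overlap. With no filter on low values its difference was 0.71 (limma adjusted p = 0.0324 over 18193 genes). A second Neurog3 probe set, also unfiltered, measured 6.89 and 6.65 in KO and 4.73 and 4.39 in WT proximal stomach, a difference of 2.21 (limma adjusted p = 6.72e-06 over all probe sets). Both Neurog3 probe sets were low in every group, so the size of these differences is uncertain.

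Chga encodes chromogranin A, the acidic granule protein used as a general marker of endocrine cells. It measured 10.29 and 10.17 in KO proximal stomach, against 7.45 and 7.11 in WT proximal stomach. It lay above the median of the array in KO and below it in WT. The difference was 2.95 (SE 0.31, limma adjusted p = 2.12e-07), a fold of 7.72. Scg2, secretogranin II, is a related granule protein and the precursor of secretoneurin; it measured 9.50 and 9.94 in KO proximal stomach, against 7.54 and 7.07 in WT proximal stomach. Its groups were also well separated, with a difference of 2.42 (SE 0.43, limma adjusted p = 1.61e-04). Chgb, chromogranin B, was already above the median in WT proximal stomach and differed less between the genotypes, with 8.92 and 9.37 in KO and 8.72 and 8.18 in WT. Its difference of 0.69 (95% interval -0.07 to 1.46) did not pass the test (limma adjusted p = 0.162). The genes with the motif in the windows above thus took different courses, with differences of 2.95 for Chga, 2.42 for Scg2, 0.69 for Chgb and -0.14 for Sst.

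Calcb, which encodes the second form of calcitonin gene-related peptide (CGRP), a neuropeptide of sensory and enteric neurons, had the largest difference of the 10 genes. It measured 13.85 and 14.02 in KO proximal stomach, against 6.92 and 8.09 in WT proximal stomach. The KO arrays were close to the top of the scale, whose highest value on any array was 15.4, while the WT arrays lay on either side of the array median. The difference was 6.43 (SE 0.41, limma adjusted p = 6.96e-11). Calca, the related gene of calcitonin and the first form of CGRP, was not analysed here, and whether the single Calcb probe set also detects it was not tested.

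Ghrl, the precursor of the appetite hormone ghrelin, measured 7.97 and 8.27 in KO proximal stomach, against 7.40 and 7.07 in WT proximal stomach. The groups did not overlap, and the difference of 0.89 (SE 0.34) just missed the threshold (limma adjusted p = 0.0506). It was called with a filter at the 75th percentile (limma adjusted p = 0.0486), with only the arrays compared (0.0325) and with array weights (0.0349). With any 1 of the 4 arrays left out, the Ghrl difference was 0.72 to 1.05 and was not called. Sst, somatostatin, an inhibitory hormone of gastric D cells, measured 7.10 and 7.25 in KO and 7.23 and 7.39 in WT proximal stomach, which overlapped. Its difference was -0.14, with a 95% interval of -0.95 to 0.67. Gcg, the proglucagon gene, measured 6.34 and 5.16 in KO and 4.94 and 6.92 in WT proximal stomach, with WT replicate 2 the highest of the 4 arrays. All 4 values were below the array median, and the difference was -0.18 (95% interval -1.10 to 0.75). Without WT replicate 1 the Gcg difference was -1.17 (limma adjusted p = 0.0378), so that its value rested on 1 array.

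**Figure D1:**
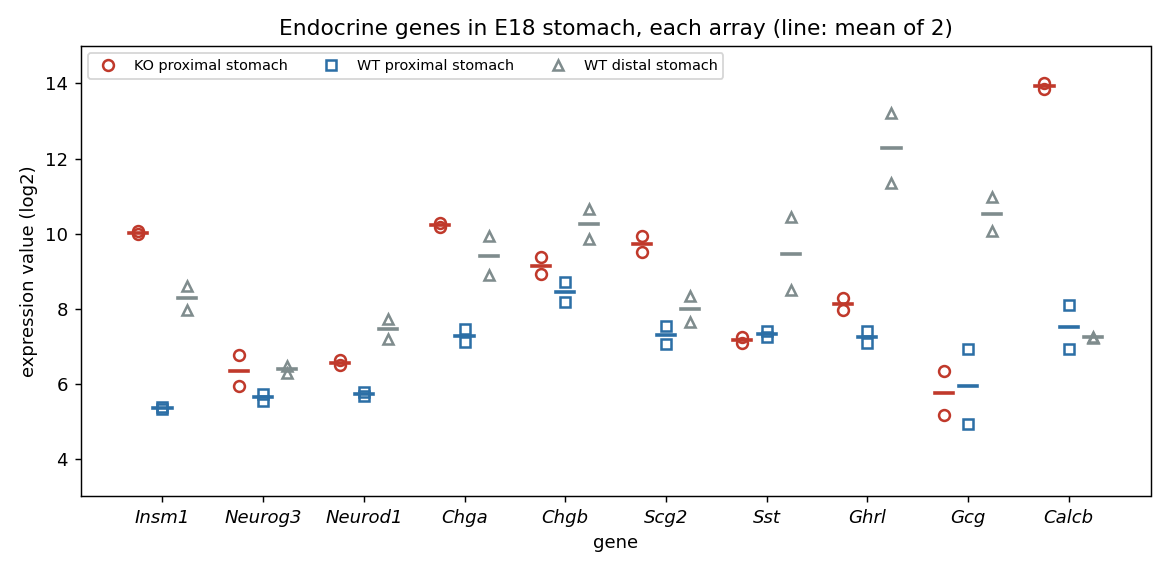
Expression values (log2, vertical axis) of the 10 genes in E18 KO proximal stomach (circles), WT proximal stomach (squares) and WT distal stomach (triangles), 1 symbol per array and a line at the mean of 2. Insm1, Chga, Scg2 and Calcb of KO proximal stomach lie above both WT tissues, whereas Sst, Ghrl and Gcg lie near WT proximal stomach and far below WT distal stomach.

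RNA quality moved with genotype in this tissue. The log2 ratio of the 3' to the 5' beta-actin control probe sets, which is larger in more degraded RNA, was 0.48 and 0.61 in KO and 0.97 and 0.88 in WT proximal stomach. With this ratio as a covariate the differences remained called for Insm1 (4.74), Calcb (6.48), Chga (2.98) and Scg2 (2.63), and Neurod1 lost its call (0.69, limma adjusted p = 0.286). Over all genes tested, 2059 were called with the covariate, against 4448 without it.

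Further endocrine genes moved with them in KO proximal stomach. Of 20 other transcription factors of endocrine cells on a list of them, 10 passed the filter on low values. Of these, 9 rose and none fell, where 18.1% of all genes tested rose. Their median difference was 1.47 against 0.02 for all genes tested. The largest were Prox1 (4.08), a homeobox factor of many endocrine lineages, St18 (3.88), a zinc-finger factor, Isl1 (1.87), a LIM-homeobox factor of endocrine cells and motor neurons, and Myt1 (1.84), a zinc-finger factor of endocrine progenitors. With the RNA quality covariate Prox1 (3.93), St18 (3.79) and Hes6 (1.60) stayed called, and the other 6 kept a positive difference of 0.45 to 1.68 without a call. Isl1 averaged 9.31 in KO and 7.44 in WT proximal stomach, but 13.0 and 12.8 in KO and WT distal stomach.

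Of 25 genes of granule biogenesis, hormone processing and amine synthesis, 22 passed the filter. Of these, 14 rose and 1 fell, where 18.1% of all genes tested rose and 14.6% fell. The prohormone convertase gene Pcsk1 rose by 3.75, the granule membrane protein gene Ptprn2 by 2.71, the complexin gene Cplx2 by 2.53 and the aromatic amino acid decarboxylase gene Ddc by 2.01. The gene that fell was Mboat4 (-1.81, SE 0.26, limma adjusted p = 1.32e-05), which encodes the acyltransferase that octanoylates ghrelin. With the RNA quality covariate 9 of the 14 stayed called, and the other 5 kept a positive difference of 0.94 to 1.69 without a call. The amine-synthesis gene Tph1, which encodes the tryptophan hydroxylase of enterochromaffin cells, rose by 0.88.

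Of 22 other gut and pancreatic hormones, 17 passed the filter, of which 3 rose and 1 fell, a share near the 18.1% of all genes that rose, and their median difference was -0.19, against 0.02 for all genes tested. Iapp, amylin of pancreatic beta cells and some gastric endocrine cells, rose by 3.71; Adcyap1, the neuropeptide PACAP, rose by 2.90; Sct, secretin, rose by 0.75; and Insl5, a hormone of colonic L cells, fell by 0.71. Of 14 receptors and accessory proteins for the 4 hormones, 8 passed the filter. The somatostatin receptors Sstr3 (3.09) and Sstr2 (2.75) rose, although Sst itself did not, and Ramp3, an accessory protein of calcitonin-family receptors, fell by 2.42 on the log2 scale.

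Genes of the Notch pathway and of the helix-loop-helix network upstream of Neurog3 moved in both directions. Of 17 listed, 15 passed the filter, 6 rose and 4 fell, where 18.1% of all genes tested rose and 14.6% fell. Gfi1, a zinc-finger repressor that acts in secretory cells, rose by 2.64, and Id2, an inhibitor of helix-loop-helix factors, by 1.70. The ligand gene Dll4 (0.80), the Notch target Hes1 (0.77), Id3 (0.88) and Id1 (0.58) also rose. The ligand genes Jag2 (-1.85) and Jag1 (-0.75), the receptor gene Notch1 (-1.58) and the feedback regulator Nrarp (-1.58) fell. Jag2, Jag1 and Notch1 are also expressed in stratified epithelium, whose markers fell in the same tissue as given above, and the part of that loss in their decline was not tested.

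Markers of some other cell types also differed in proximal stomach, where 18.1% of all genes tested rose and 14.6% fell. Simple-epithelium markers rose in 10 of 10 genes, by 0.46 for Cdh1 to 7.01 for Agr2, urothelial markers in 6 of 7, gastric glandular markers in 6 of 10 and intestinal markers in 3 of 12, led by Vil1 (4.89). Of 21 neuronal and glial genes tested, 4 rose (Snap25 2.01, Syt1 1.02, Elavl4 0.98 and Erbb3 0.31), a share near that of all genes. Sox10, a glial factor, fell by 0.87. Snap25 and Syt1 are also genes of endocrine exocytosis. The mean of the 21 genes per array was 9.33 and 9.01 in KO and 9.09 and 8.90 in WT proximal stomach, which overlapped. The exocrine pancreas genes, a check for attached pancreas, had means of 5.91 and 6.22 in KO and 5.85 and 5.62 in WT. Both KO means thus lay above both WT means, and at most 1 of the 8 genes lay above the array median. Cela1 was called higher in KO (1.73, limma adjusted p = 3.17e-04), and the others of the 8 were not called. The part of these cell types in the endocrine genes was not tested.

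The gain in KO proximal stomach did not match the normal distal stomach. In WT, 7 of the 9 genes tested were higher in distal than in proximal stomach, where 22.3% of all genes tested were higher: Ghrl by 5.04, Gcg by 4.59, Insm1 by 2.93, Sst by 2.15, Chga by 2.13, Chgb by 1.81 and Neurod1 by 1.74. Scg2 (0.69, limma adjusted p = 0.223) and Calcb (-0.27, adjusted p = 0.645) did not pass. Set against WT distal stomach, KO proximal stomach was higher in Calcb (6.70), Insm1 (1.75) and Scg2 (1.73), which is 3 of 9 where 16.1% of all genes were higher. It was lower in Gcg (-4.76), Ghrl (-4.15), Sst (-2.29), Chgb (-1.11) and Neurod1 (-0.90), 5 of 9 where 16.7% were lower. Chga did not pass (0.81, limma adjusted p = 0.0522).

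Ghrl illustrates the difference, with 7.97 and 8.27 in KO proximal stomach, against 13.21 and 11.34 in WT distal stomach. Gcg had 6.34 and 5.16 in KO proximal stomach, against 10.96 and 10.06 in WT distal stomach. The hormone genes of the normal glandular stomach were thus far lower in KO proximal stomach, while Insm1 (9.98 and 10.07 against 7.96 and 8.59) and Scg2 (9.50 and 9.94 against 8.34 and 7.64) were higher there. The smaller of these differences depended on single arrays. Without WT distal stomach replicate 1, Chga was called higher (1.34) and Chgb (-0.71) and Neurod1 (-0.64) were not called; without WT distal stomach replicate 2 (1.38) or KO proximal stomach replicate 2 (1.51) Scg2 was not called, and without KO proximal stomach replicate 1 Chgb (-0.89) was not.

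In distal stomach the genotypes did not differ by the test in any of the 9 genes, and none of the 13613 genes tested was called (0%; 1 of the 9 and 3.88% of all genes at an unadjusted p under 0.05); with 1 of the 4 arrays left out, 0 to 252 genes were called. Sst measured 8.34 and 8.27 in KO and 10.43 and 8.49 in WT distal stomach. The KO arrays lay below both WT arrays, and WT replicate 1 stood alone at the top. Ghrl showed the same array apart, with 11.61 and 11.57 in KO and 13.21 and 11.34 in WT distal stomach. The differences were -1.15 for Sst and -0.68 for Ghrl (limma adjusted p = 0.996 for each), and without WT replicate 2 they were -2.12 and -1.62. Against WT replicate 2 alone, both KO arrays were slightly lower for Sst and higher for Ghrl. Both differences thus rested largely on WT replicate 1. Insm1 (0.19, 95% interval -0.27 to 0.66) and Calcb (0.31, 95% interval -0.54 to 1.16) showed no difference past the threshold.

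The test of the difference between the tissues addressed whether the KO effect was larger in proximal than in distal stomach. It was for 5 of the 9 genes, where 10.3% of all genes tested had a larger effect: Calcb (6.13), Insm1 (4.49), Chga (3.40), Scg2 (3.07) and Ghrl (1.57, limma adjusted p = 0.0243). The Ghrl call rested on single arrays and was lost in the fits without KO distal stomach replicate 1 (1.59) or 2 (1.55), KO proximal stomach replicate 2 (1.42), WT distal stomach replicate 1 (0.64) or WT proximal stomach replicate 2 (1.41), and with the RNA quality covariate (1.15, adjusted p = 0.377).

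In small intestine the 9 genes did not differ by the test, nor did any other gene (0%; 0 of the 9 and 4.6% of all genes at an unadjusted p under 0.05). Chgb, Ghrl and Gcg were all high there, with Chgb at 12.33 and 12.37 in KO and 12.49 and 12.50 in WT, Ghrl at 12.03 and 12.01 in KO and 11.73 and 11.98 in WT, and Gcg at 12.19 and 11.84 in KO and 12.28 and 11.96 in WT. The differences of the 9 genes lay between -0.37 for Chga and 0.33 for Neurod1. One array of each genotype carried exocrine pancreas RNA: the mean of 8 pancreatic genes was 9.61 in KO replicate 1 and 9.64 in WT replicate 2, against 7.12 in KO replicate 2 and 7.15 in WT replicate 1. Gcg and Sst are also islet hormones, and the part of pancreas in their level there was not tested.

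In large intestine 0 of the 9 genes were called, where 0.0882% of all genes tested were (1 of the 9 and 4.89% of all genes at an unadjusted p under 0.05). Gcg, the hormone of L cells that are abundant in the colon, was at its highest in this tissue, with 12.85 and 12.95 in KO and 12.66 and 12.33 in WT. Scg2 measured 7.53 and 6.63 in KO and 8.90 and 7.24 in WT, which overlapped. Its difference was -0.99 (limma adjusted p = 0.996), and without WT replicate 2 it was -1.83 (adjusted p = 0.0461). Insm1 was 8.80 and 8.89 in KO and 8.59 and 8.66 in WT.

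Over the 14 groups, Insm1, Chga, Scg2 and Calcb reached their highest mean in KO proximal stomach. For Insm1 that group (10.02 ± 0.06, SD, n = 2) lay above the next, KO large intestine (8.84 ± 0.06), without overlap, and WT proximal stomach (5.34 ± 0.04) lay between the WT small intestine and the bladder groups. The Calcb mean of 13.94 ± 0.12 in KO proximal stomach stood far above that of the next group, WT small intestine (8.45 ± 0.20), and 12 of the 13 neighbouring pairs in its order overlapped, so that only the top step was clear. For Chga the next group was WT small intestine (9.89 ± 0.37), again without overlap. Chgb and Sst were highest in WT small intestine, Neurod1 in KO small intestine, Ghrl and Neurog3 in WT distal stomach and Gcg in KO large intestine. Sst spanned only 2.40 over the groups, lowest in KO proximal stomach, and 12 of its 13 neighbouring pairs overlapped.

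**Figure D2:**
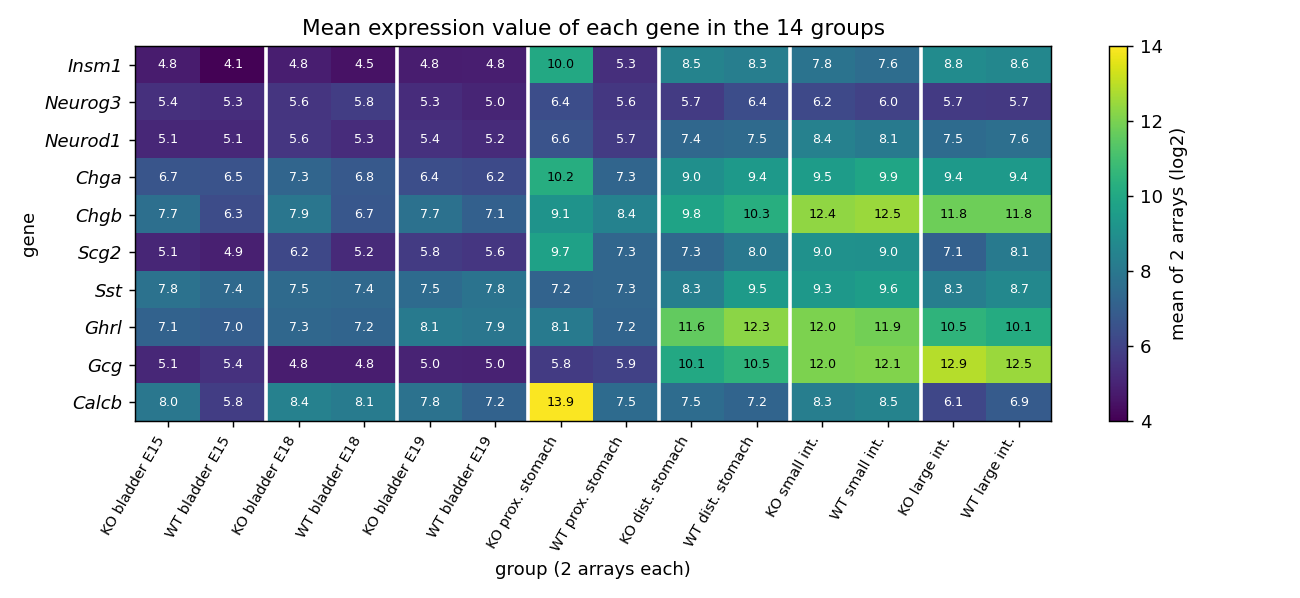
Mean log2 expression value of 2 arrays for each of the 10 genes (rows) in the 14 groups (columns, KO left of WT for each tissue and stage); lighter cells are higher, and the number in each cell is the mean. KO proximal stomach stands out for Insm1, Chga, Scg2 and Calcb, while Chgb, Ghrl and Gcg are high in the intestine in both genotypes.

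The genes whose profile over the 28 arrays was most like that of Insm1, by Pearson's r among 13604 other genes, were St18 (0.98), Miat (0.96), Fam83e (0.95), Tox (0.95) and Cracr2b (0.94). For Chga they were Baiap2l1 (0.95), Epcam (0.95), Fam83e (0.94), Galnt7 (0.94) and Misp (0.94). The points share their tissues, and Epcam is an epithelial marker, so that these values describe the arrays. Among the 10 genes, Chga and Insm1 correlated at 0.93 and Neurod1 and Insm1 at 0.82. The pairs with Calcb ran from -0.22 with Gcg to 0.52 with Scg2. All other pairs ran from 0.40 for Sst and Neurog3 to 0.95 for Chgb and Neurod1.

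In bladder the picture was much narrower. Over the mean of the 3 stages, 2 of the 9 genes rose in KO, Chgb by 1.07 (SE 0.21, limma adjusted p = 0.00138) and Calcb by 1.01 (SE 0.24, adjusted p = 0.00475), and none fell; 14% of all genes tested rose. Both kept their call with the RNA quality covariate. Insm1 (0.33, adjusted p = 0.0705), Chga (0.26, adjusted p = 0.327), Scg2 (0.44, adjusted p = 0.215), Neurod1, Sst, Ghrl and Gcg did not pass the test. Insm1, Neurod1, Scg2 and Gcg lay below the median on every bladder array. The median difference over the 3 stages was 0.21 over the 10 genes and 0.06 over all genes tested. Most of the 10 genes were thus not called in KO bladder, and whether they rose as a group was not tested.

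At E15, 2 of the 9 genes rose in KO bladder, where 4.55% of all genes tested did. Calcb measured 7.37 and 8.56 in KO and 5.61 and 6.0 in WT bladder, without overlap, a difference of 2.16 (SE 0.41, limma adjusted p = 0.00316). Chgb measured 7.30 and 8.02 in KO and 6.07 and 6.56 in WT bladder, also without overlap, a difference of 1.34 (SE 0.37, adjusted p = 0.032). Insm1 measured 4.84 and 4.71 in KO and 3.87 and 4.26 in WT bladder, all at the low end of the array, and its difference of 0.71 missed the threshold (adjusted p = 0.0586). The calls were fragile: Chgb lost its call without any 1 of the 4 arrays (differences of 0.98 to 1.71), and Calcb lost it without WT replicate 1 (1.97, adjusted p = 0.0772).

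RNA quality also moved with genotype at this stage, in the opposite direction, with a 3' to 5' actin ratio of 1.33 and 1.12 in KO and 0.69 and 0.78 in WT bladder. With it as a covariate the differences were 2.10 for Calcb (limma adjusted p = 0.663) and 1.47 for Chgb (adjusted p = 0.918), and 3 of all genes tested were called, against 959 without it; with 1 of the 4 arrays left out the count was 126 to 1783.

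At E18, 0 of the 9 genes were called in bladder, where 1.56% of all genes tested rose and 3.24% were called in either direction (2 of the 9 and 15.3% of all genes at an unadjusted p under 0.05). Chgb measured 8.66 and 7.15 in KO and 6.55 and 6.89 in WT bladder. KO replicate 1 was the highest by far, and the difference of 1.19 missed the threshold (limma adjusted p = 0.0904); without KO replicate 2 it was 1.95 (adjusted p = 0.00371). Calcb measured 8.77 and 8.04 in KO and 7.98 and 8.32 in WT bladder, which overlapped. Scg2 differed by 0.96 (adjusted p = 0.29), with 6.61 and 5.71 in KO and 5.12 and 5.28 in WT bladder.

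At E19, 0 of the 9 genes were called, where 13.5% of all genes tested rose and 20% were called in either direction (0 of the 9 and 33.1% of all genes at an unadjusted p under 0.05). Chgb measured 7.46 and 8.04 in KO and 6.89 and 7.26 in WT bladder, and Calcb 7.81 and 7.72 in KO and 6.97 and 7.34 in WT bladder. For both genes the KO arrays lay above the WT arrays, with differences of 0.68 (95% interval -0.09 to 1.44) and 0.61 (95% interval -0.24 to 1.46). The change of the KO effect between E15 and E19 was not called for any of the 9 genes, where 8.59% of all genes were; 2 of the 9 and 23.7% of all genes had an unadjusted p under 0.05. Without KO E15 replicate 1 it was called for Calcb (-2.15, limma adjusted p = 0.043).

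**Figure D3:**
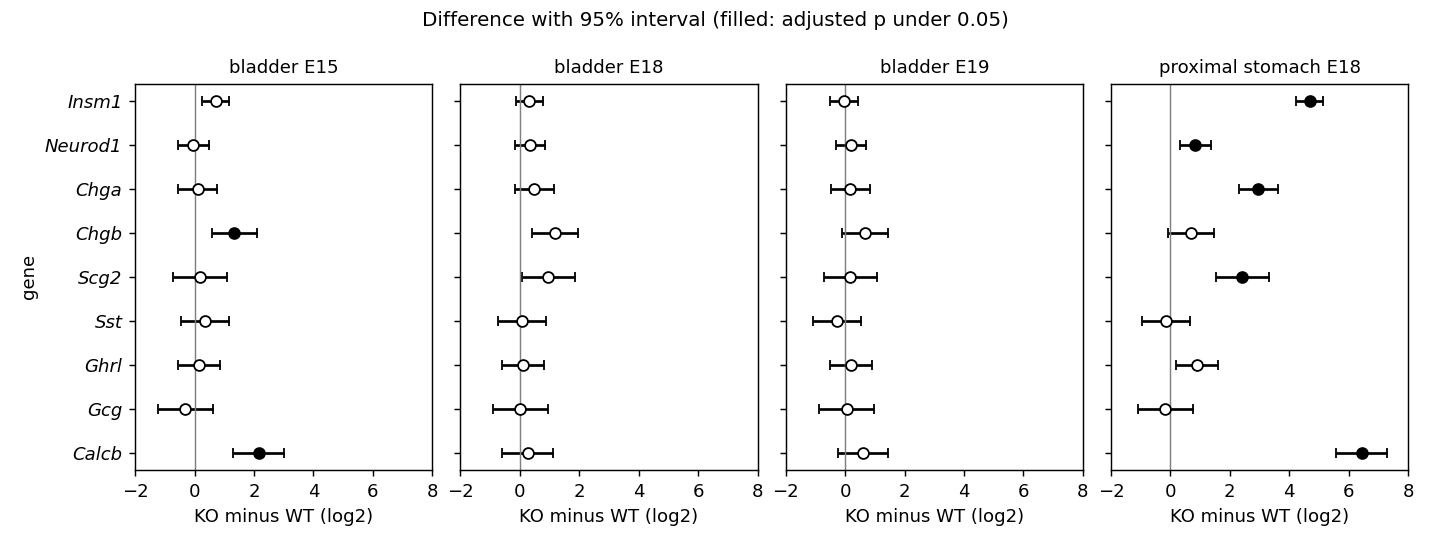
KO minus WT difference (log2, horizontal axis) with its 95% interval from the limma fit for the 9 genes tested (rows), in bladder at E15, E18 and E19 and in proximal stomach at E18; filled points have an adjusted p under 0.05. Proximal stomach has 5 filled points reaching 6.43, while bladder has filled points for Chgb and Calcb at E15 alone.

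Neuronal genes moved with Chgb and Calcb in bladder. Of 21 neuronal and glial genes tested, 15 rose in KO over the mean of the 3 stages and none fell, where 14% of all genes tested rose. Their median difference was 0.75 against 0.06 for all genes tested. At the single stages, 4.55% of all genes rose at E15, 1.56% at E18 and 13.5% at E19. Of the 21 neuronal and glial genes, 8 rose at E15 (led by Prph at 2.57 and Tubb3 and Stmn3 at 1.81 each), 3 at E18 (Elavl4 at 1.36, Stmn2 at 1.24, Uchl1 at 1.15) and 5 at E19 (led by Prph at 1.81, Nos1 at 1.33 and Uchl1 at 1.28). Prph, Tubb3 and Stmn2 are cytoskeletal genes of neurons, and Nos1 marks nitrergic neurons. With the RNA quality covariate the counts were 8 over the mean of the stages and 0 at E15, and without WT E15 replicate 1 the count at E15 was also 0.

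The mean of the 21 genes was 8.31 and 8.85 in KO and 7.36 and 7.77 in WT bladder at E15, 9.35 and 7.96 in KO and 7.52 and 8.21 in WT at E18, and 8.61 and 8.71 in KO and 7.87 and 8.10 in WT at E19. KO E18 replicate 1, the array with the highest Chgb and Calcb of all bladder arrays, was also the highest of them in this mean. Both peptides are known in neurons as well as in endocrine cells, and the part of nerve tissue in their rise was not tested. In distal stomach and intestine the mean was 9.05 to 10.94 over both genotypes.

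**Figure D4:**
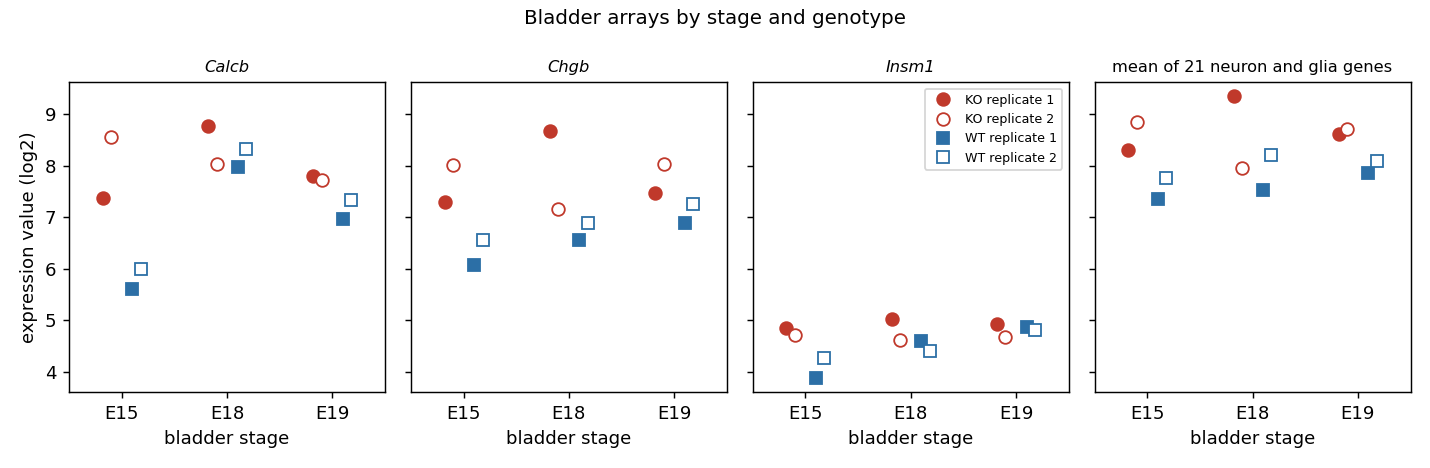
Log2 expression values of Calcb, Chgb and Insm1 and the mean of 21 neuronal and glial genes (1 panel each, shared vertical axis) in KO (circles) and WT (squares) bladder at E15, E18 and E19, filled for replicate 1 and open for replicate 2. The genotypes do not overlap for Calcb and the neuronal mean at E15 and E19, for Chgb at all 3 stages and for Insm1 at E15 and E18; Insm1 lies between 3.87 and 5.03 on every array.

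Some genes of the other endocrine lists were also called in KO bladder. Over the mean of the 3 stages, 9 of the 22 granule and secretory genes rose and 1 fell, where 14% of all genes tested rose. Their median difference was 0.34 against 0.06 for all genes tested. Those that rose were Scg5 (1.49), Ptprn2 (0.99), Slc18a1 (0.81), Rab3b (0.80), Resp18 (0.78), Scg3 (0.66), Hdc (0.63), Ddc (0.49) and Tph1 (0.39), and Pam, which encodes a peptide-amidating enzyme, fell (-0.39). With the RNA quality covariate 5 granule genes were called higher. Of the 10 endocrine transcription factors tested, Myt1 (1.31), Isl1 (0.59) and Hes6 (0.37) rose over the mean of the stages and Sox4 (-0.41) fell. Of the 17 other hormones Cartpt (1.37), Npy (0.82) and Grp (0.68) rose, a share near the 14% of all genes, and Gal (-0.51) fell. In the same comparison 15 of the 21 neuronal and glial genes rose, and the part of nerve tissue in the rises named here was not tested. Of all genes tested, 4.55% rose at E15, 1.56% at E18 and 13.5% at E19. At the single stages, of the 22 granule genes, 0 rose and 1 fell at E15 (Pam, -1.15), 1 rose at E18 (Pcsk1, 1.09) and 8 rose at E19, led by Rab3c (1.55), Scg5 (1.42) and Syt13 (1.24). The count at E19 was 3 to 5 when any 1 of the 4 arrays was left out. Of the transcription factors, Myt1 rose at E15 (1.82) and Runx1t1 (0.67) and Hes6 (0.51) at E19, while Sox4 fell at E15 (-0.66) and Hhex at E19 (-1.02). Among other hormones, the neuropeptide genes Cartpt (1.62) and Adcyap1 (0.81) rose at E15, Tac1 (1.09) at E18 and Grp (1.18), the gastrin-releasing peptide gene, at E19. Sct fell at E18 (-0.82). With the RNA quality covariate, 3 of all genes tested were called at E15, against 959 without it, so the E15 calls given here are uncertain.

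Atoh1, the helix-loop-helix factor that specifies secretory cells in the intestine, rose in KO bladder at E18 (1.48, limma adjusted p = 5.6e-04) and E19 (2.53, adjusted p = 4.33e-07). The goblet-cell genes Tff3 (4.49 and 4.35) and Guca2a (4.73 and 4.41), from the list of 12 intestinal markers, rose at both stages too. Of that list Vil1 and Fabp1 also rose at both stages, and Muc2 (1.47) and Cdh17 (1.11) at E19 alone. Vil1 (1.35) and Fabp1 (3.06) were already called higher at E15. Atoh1 (-0.12), Tff3 (0.11) and Guca2a (-0.09) were not called at E15. Muc2 was not called at E18 (0.60, limma adjusted p = 0.574). Fabp2, Cdx1, Cdx2, Apoa4, Apoa1 and Lct were called at neither E18 nor E19. Of all genes tested, 4.55% rose at E15, 1.56% at E18 and 13.5% at E19. Notch1 fell at all 3 stages (-0.53, -0.95 and -0.71), Jag2 at E18 (-1.83) and E19 (-0.68) and Nrarp at E18 (-1.25) and E19 (-1.17). Notch2 (-0.46) and Id2 (-0.77) fell at E15, and the Notch pathway gene Rbpj rose at E19 (0.40). The other genes of the Notch and upstream list were not called at any stage. Of all genes tested, 3.24% were called in either direction at E18 and 20% at E19. At E15 the Notch1 call was close to the threshold (limma adjusted p = 0.0465), and 3 of all genes were called there with the RNA quality covariate. Insm1, at -0.03 (95% interval -0.50 to 0.43), and Neurod1, at 0.20 (95% interval -0.31 to 0.72), did not pass the test at E19.

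The KO effect was larger in proximal stomach than in bladder at E18 for 3 of the 9 genes, where 12.4% of all genes tested had a larger effect: Calcb (6.17), Insm1 (4.36) and Chga (2.47). Scg2 (1.46, limma adjusted p = 0.0934) and Neurod1 (0.49, adjusted p = 0.344) did not pass this test, and Chgb differed by -0.50 (95% interval -1.58 to 0.59). Without KO bladder E18 replicate 1 the Scg2 value was 1.91 and was called (adjusted p = 0.0493).

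In WT bladder, 3 of the 9 genes were higher at E19 than at E15, Calcb by 1.35, Ghrl by 0.96 and Insm1 by 0.77, where 29.8% of all genes tested were higher and the difference of the median gene was -0.16 (log2). The E19 arrays had medians of 7.48 to 7.53, below those of all other arrays (7.73 to 7.86), in KO and WT alike, so stage and array level cannot be told apart. After each array was centred on its median, 5 of the 9 were called. Without WT E15 replicate 1 none of the 3 was called, without WT E19 replicate 1 Ghrl was not, and without WT E19 replicate 2 Calcb was not.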

How the data were processed

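The authors deposited 1 table of log2 expression values for 45101 probe sets on 28 arrays; Affymetrix Expression Console and Partek were used, per the submitters' processing notes, and how background and array-to-array scale were handled is not given in the sources used here. Control probe sets (64) were left out. Probe sets were named through GEO's platform annotation (34945 with 1 symbol, 932 with several, 9160 with none). Probe sets above the median of the array on at least 2 arrays were kept, and each gene was taken by its highest-mean probe set with 1 symbol (13613 genes). limma 3.58.1 in R 4.3.3 fitted 1 mean per group over all 28 arrays, with an intensity trend in the variance and Benjamini-Hochberg adjustment over all genes tested; the residual degrees of freedom were 14. With 2 arrays against 2, the smallest p an exact permutation test allows is 0.333. The number of arrays limits the precision. The fit was tested on simulated data. The alternatives were other normalizations, filters, probe-set rules, variance models, an RNA quality covariate, a replicate block and each array left out.

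All 10 genes were examined in every comparison, Neurog3 outside the main test, but not every value is given above. Genes tested that are not named in a comparison were not called there. There were 12 gene lists. For those of endocrine, hormone, receptor, Notch, neuronal and pancreatic genes, the genes called with the largest differences were named. The rule was up to 4 each way in proximal stomach and 3 in each bladder stage. For the lists of epithelial markers only counts or some of the genes were given, in bladder for the intestinal list alone. A few further genes of a list, called or not, were named after their values were seen. The genes and lists were chosen with earlier results of these data known. The promoter windows came from RefSeq (GRCm38.p6).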

Additional observations from a re-analysis of the deposited data

Results flagged for a closer look

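The KO effect in proximal stomach at E18 exceeded that in distal stomach, by the interaction term of the limma fit, for 5 genes. The excess was 6.13 for Calcb (SE 0.58, adjusted p = 7.96e-08), 4.49 for Insm1 (SE 0.31, adjusted p = 8.25e-10), 3.40 for Chga (SE 0.44, adjusted p = 7.16e-06), 3.07 for Scg2 (SE 0.61, adjusted p = 8.89e-04) and 1.57 for Ghrl (SE 0.48, adjusted p = 0.0243), on the log2 scale. In the first 4 of these genes the effect in proximal stomach was positive by itself, whereas the Ghrl value combines an uncalled 0.89 in proximal stomach with an uncalled -0.68 in distal stomach.

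Against bladder at E18, the excess in proximal stomach was 6.17 for Calcb (SE 0.58, adjusted p = 7.41e-08), 4.36 for Insm1 (SE 0.31, adjusted p = 1.38e-09) and 2.47 for Chga (SE 0.44, adjusted p = 3.31e-04). Both sets of values share the proximal stomach arrays.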

How the results depend on the processing

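No called difference of a gene changed sign in any alternative run. Over the 14 comparisons 35 differences of single genes were called; of their 371 values under other settings of all arrays 360 stayed called and 11 did not, and of 188 values with 1 array left out 166 stayed called. A filter at the 75th percentile left fewer of the 9 genes to test, and none of those still tested lost its call. It gave 3 called in KO against WT proximal stomach and 3 for the difference between proximal and distal stomach. The count was 4 in WT distal against WT proximal stomach and 4 in KO proximal against WT distal stomach. Median centring and a fit of only the groups compared each gave 5 in WT bladder at E19 against E15. Array weights gave 1 in bladder at E18. In bladder at E15, 0 genes were called with the RNA quality covariate and 1 at an adjusted p under 0.01. For the lists, the covariate gave 3 transcription factors and 9 granule genes in proximal stomach, and 0 neuronal genes in bladder at E15 and 8 over the 3 stages, and 5 granule genes over the 3 bladder stages; the cause was not tested.

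With each array left out in turn, the number of the 9 genes called was 4 to 6 in proximal stomach, 0 to 1 in bladder at E15, 0 to 1 at E18, 2 to 3 over the 3 stages, 0 to 2 in distal stomach, 0 to 1 in large intestine, 0 to 1 for the difference between E19 and E15, 4 to 7 for proximal against distal stomach, 3 to 4 for proximal stomach against bladder, 7 for KO proximal against WT distal stomach and 0 to 3 in WT bladder. The lists gave 8 transcription factors and 11 to 12 granule genes in proximal stomach, 0 to 5 neuronal genes in bladder at E15 and 10 to 18 over the stages, 3 to 5 granule genes at E19 and 7 to 10 over the stages.

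Replicate numbers were not taken to pair the arrays, since the labels name no shared source and deviations of same-numbered arrays correlated above 0.1 in proximal stomach (0.25), distal stomach (0.20) and large intestine (0.28) but not in the other 4 tissues and stages (-0.13 to -0.003). With the number as a replicate block, 6 genes were called in proximal stomach (Ghrl added, 0.89, adjusted p = 0.0396) and 4 for proximal stomach against bladder (Scg2 added), and no call was lost. A crossed block in small intestine, added after the data were seen, gave 0 of the 9 genes.

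With the covariate, counts over all genes tested were lower in several comparisons (3 in place of 959 in bladder at E15, 2059 in place of 4448 in proximal stomach, 1185 in place of 2857 over the bladder stages, 1244 in place of 2618 and 1860 in place of 3108 for proximal stomach against distal stomach and bladder, 30 in place of 1170 for E19 against E15). They were 514 and 291 in bladder at E15 and E18 and 0 in large intestine with only the groups compared, 716 in bladder at E18 with array weights and 19 in large intestine with the block. At an adjusted p under 0.01 they were 310, 176 and 1372 in bladder at E15, E18 and E19, 1355 over the stages, 4 in large intestine, and 1692, 1883 and 417 for the 3 differences between effects. With 1 array left out they were 164 to 311 in bladder at E18, 1364 to 1990 at E19 (2721 with all), 4 to 121 in large intestine (12 with all), 0 to 14 in small intestine (0 with all) and 3003 to 4022 in proximal stomach. The 2 arrays a group limit what can be seen. So do values near the floor of the array for Neurog3, for Neurod1 in bladder and proximal stomach, and for Insm1 and Gcg in bladder.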
